A study of Capra hircus with 4 samples.

Results

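Blood vessel endothelial cells of the goat pancreas were taken as barcodes with at least 3000 UMIs (unique molecular identifiers, each standing for 1 captured transcript) and at least 500 genes that met 3 further conditions. At least 4 of 12 endothelial genes had to be detected: the junction proteins PECAM1, CDH5, CLDN5 and ESAM, the receptors KDR, FLT1, TIE1 and ROBO4, the secreted proteins VWF and EGFL7, and the surface proteins PLVAP and EMCN. PTPRC, which marks leukocytes, and PDGFRA, which marks fibroblasts, had to be at 0 UMIs. The lymphatic genes MMRN1, PROX1, LYVE1 and CCL21 had to sum to fewer than 5 UMIs. These conditions held in 236 of 17982 barcodes past the same depth limits. The conditions read expression, so the levels of these genes only describe how the cells were chosen.

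The study sampled the pancreas of 4 Liuyang black goats from commercial farms, described as twin females. The XY group was the control, with 2 neonatal goats aged 10 days that did not yet ruminate, and the DY group held 2 adult goats aged 6 months that did. The tissue of both groups was digested with collagenase IV, dispase and DNase I, red blood cells and dead cells were removed, and 10x Genomics 3' v3 libraries were made for a target of 8000 cells. The deposited matrix holds UMI counts of 4 libraries told apart by a barcode suffix, here libraries 1 to 4, and no label ties a suffix to a goat or an age. No age comparison was therefore made, and values are given for each library.

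Blood vessel endothelial cells line arteries, capillaries and veins, hold blood inside the vessel and control which solutes, lipids and leukocytes cross its wall. In the pancreas the capillaries of islets and of the exocrine lobules are fenestrated: their endothelium has pores closed by diaphragms built from PLVAP, and hormones pass through them into the blood. VEGFA from epithelial cells acts on the receptors KDR and FLT1 of this endothelium and maintains its fenestrae. Lymphatic endothelial cells are a separate lineage kept by the transcription factor PROX1, and drain tissue fluid.

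The cells numbered 52, 125, 51 and 8 in libraries 1 to 4. They made up 1.62% of the qualifying barcodes of library 1 (95% exact binomial interval 1.21 to 2.12), 1.89% of library 2 (1.57 to 2.25), 1.06% of library 3 (0.787 to 1.39) and 0.240% of library 4 (0.104 to 0.473). Lymphatic endothelial cells, defined by the same conditions but with at least 5 lymphatic UMIs, numbered 99, 61, 20 and 50. The blood vessel share of all endothelial cells was thus 34.4% (26.9 to 42.6), 67.2% (60.0 to 73.9), 71.8% (59.9 to 81.9) and 13.8% (6.15 to 25.4). Blood vessel cells outnumbered lymphatic cells in libraries 2 and 3 and were outnumbered in libraries 1 and 4. All intervals cover counting error only.

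**Figure D1:**
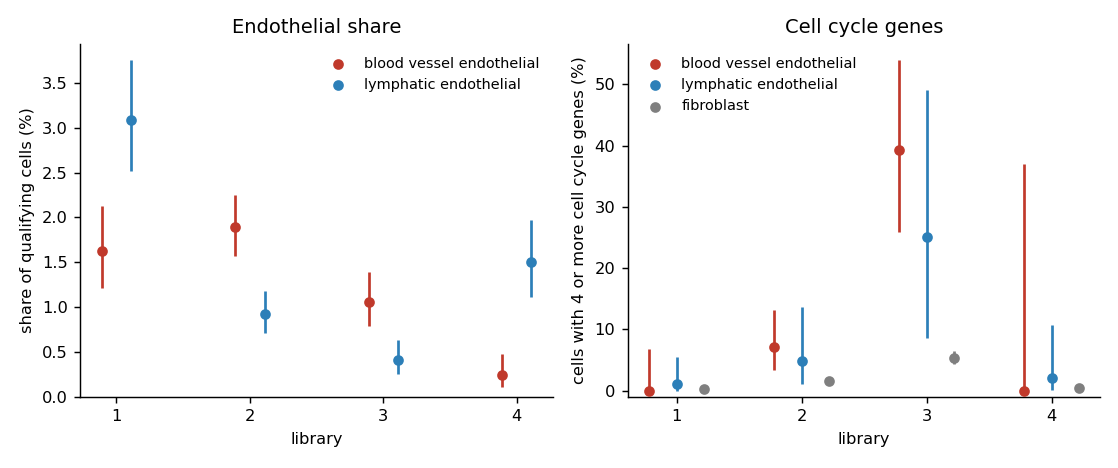
Left, blood vessel (red) and lymphatic (blue) endothelial cells as a percentage of qualifying barcodes in libraries 1 to 4. Right, percentage of blood vessel endothelial, lymphatic endothelial and fibroblast (grey) cells with at least 4 of 23 cell cycle genes detected. Points are the measured shares and bars are 95% exact binomial intervals. The blood vessel share runs from 0.240% to 1.89%, and the cell cycle share in these cells from 0% to 39.2%.

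Median depth per blood vessel cell was 5284.5, 5080, 5154 and 6640.5 UMIs in libraries 1 to 4, against 5661, 7348, 5735.5 and 5627 in lymphatic cells, so lymphatic cells were deeper in library 2. Summed UMIs were 311281, 975615, 358818 and 48275, so library 4 gives little precision: 3 UMIs there equal 62.1 CPM (UMIs scaled to a library sum of 1000000). The median cell had 10 of the 12 endothelial genes, and 167 of 236 had at least 9. At the edge of the rule lay 3 cells with 4 genes and 6 with 5, while 14 barcodes with 3 genes and 114 with 2 fell just outside. The lymphatic sum was 0 UMIs in 190 cells and 3 or 4 in 8 cells, and 20 lymphatic cells had 5 to 9 against their median of 86.5. No barcode sequence was shared between libraries among the 236 cells. Among all qualifying barcodes, 68 carried a sequence also found in another library.

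RNA of other cell types was present in these cells. Named and unnamed acinar genes reached at least 5% of UMIs in 12 cells (2, 8, 1 and 1 by library), with a maximum of 70.8%, and islet hormones did so in 9 cells (2, 3, 2 and 2), with a maximum of 41.5%. Together 20 cells carried acinar or islet genes at that level, or at least 4 endocrine genes. In the median cell acinar genes held 0.406%, 0.912%, 0.654% and 0.139% of UMIs. In the summed UMIs, on which the CPM values below rest, they held 1.29%, 13.1%, 1.95% and 0.648%. The deepest cell, in library 2, had 87997 UMIs. Of 15 leukocyte genes measured, 7 were at 0 UMIs in all 236 cells: PTPRC, which the rule set to 0, and CD3E, CD3D, CSF1R, TYROBP, CD79A and MS4A1. Of 7 erythroid genes listed, only ALAS2 and AHSP were in the annotation. Both were at 0 UMIs, which does not show that red blood cell RNA was absent. Of 13 mural genes only CNN1 was at 0. MYL9 had UMIs in 53 cells, TAGLN in 37 and PDGFRB in 12, and the other 9 in 1 (MYH11) to 7 (ACTA2 and DES). Without the 20 cells, 263 genes were higher and 253 lower in the comparison with lymphatic cells below, of which 226 and 222 were among the 230 and 260 called with them. That alternative was added after the data were seen.

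The label came with 5 marker genes, chosen with earlier results of these data known, so their levels describe it and are no independent check. PLVAP, VWF and FLT1 belong to the rule and were fixed by it, while PTPRB and SLCO2A1 do not. PLVAP, the diaphragm protein, had 8516, 2059, 2962 and 3128 CPM in libraries 1 to 4, against 5.29, 101 and 219 CPM in lymphatic cells of libraries 1 to 3. VWF, which carries factor VIII and tethers platelets, had 1783, 1052, 1081 and 1346 CPM, and FLT1, the high-affinity VEGFA receptor, 601, 251, 337 and 207 CPM. Outside the rule, PTPRB, the phosphatase that restrains TEK signalling, stood at 694, 548, 415 and 746 CPM and was detected in 206 of 236 cells (87.3%), against 0.278% of acinar cells, which should lack it and were deeper (median 15161 against 5172.5 UMIs). These acinar cells were chosen with fewer than 4 of the 12 endothelial genes, so acinar barcodes with more endothelial RNA are not counted. SLCO2A1, a prostaglandin carrier, stood at 581, 366, 546 and 766 CPM in 178 cells (75.4%), against 7.11% of acinar cells. Both were high in all 4 libraries, library 4 included. Lymphatic cells carried PTPRB as well. With every cell thinned to 3000 UMIs, PTPRB was detected in 73.7% of blood vessel cells and 32.6% of lymphatic cells. SLCO2A1 was detected in 63.1% and 6.52% of them. Detection of PTPRB alone therefore does not tell blood vessel from lymphatic cells.

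To describe what sets these cells apart, summed UMIs per class and library were turned into CPM, and the log2 ratio of CPM + 10 was taken within each library. A gene entered when the rate of the higher class would give at least 5 UMIs in the class with the smaller UMI sum. This had to hold in each library with at least 20 cells of both classes, which were libraries 1, 2 and 3. The gene was called when the ratio was at least 2-fold the same way in all 3. Because the classes were drawn from expression in the same cells, these calls describe them and are no test, and a gene that was not called is not shown to be equal. Fold changes on this scale understate the differences of low genes. In sums over cells of this kind, fewer cells with a transcript and less of it per cell cannot be told apart.

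Against lymphatic endothelial cells, 5999 genes could be compared, of which 230 (3.83%) were higher in blood vessel cells and 260 (4.33%) lower. With ratios centred on the median of all genes, 231 (3.85%) were higher and 256 (4.27%) lower. Of 235 compared genes from endothelial function lists, leaving out the rule genes, 70 were higher and 19 lower. The capillary, lipid, leukocyte adhesion and antigen presentation genes leaned to the blood vessel side, and the lymphatic genes to the other. Most junction genes and endothelial transcription factors were not called. The lists were chosen with such differences known, so these counts are descriptions. Of 110 list genes called here in either direction, 30 were lost with cells thinned to 3000 UMIs and 36 with a pseudocount of 50 CPM. ANGPT2, ACKR1, ICAM3 and SEMA3G were each lost in 4 of the alternatives.

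**Figure D2:**
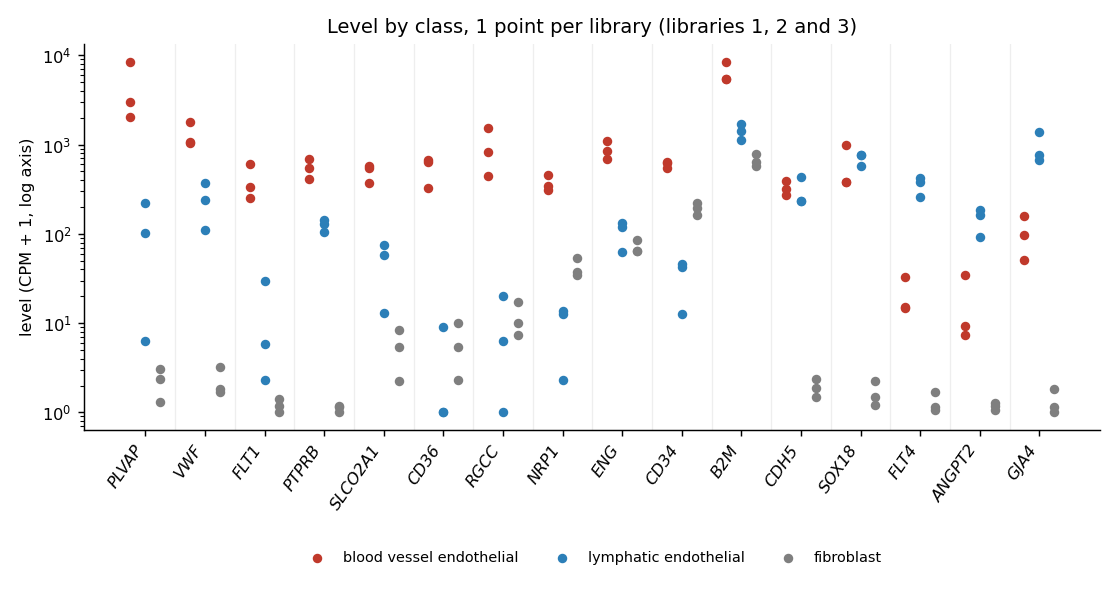
Level of 16 genes in blood vessel endothelial (red), lymphatic endothelial (blue) and fibroblast (grey) cells, as CPM + 1 on a log axis, with 1 point for each of libraries 1, 2 and 3. PLVAP, CD36 and RGCC separate the 2 endothelial classes in each library, CDH5 and SOX18 overlap between them, and FLT4, ANGPT2 and GJA4 are higher in lymphatic cells.

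Among VEGF receptors, the co-receptor NRP1 had 459, 309, 340.0 and 104 CPM in blood vessel cells and 1.32, 12.8 and 11.5 in lymphatic cells, log2 ratios of 5.37, 3.80 and 4.02. NRP2, the co-receptor that binds VEGFC, lay the other way at 77.1, 77.9, 80.8 and 82.9 CPM against 319, 240.1 and 368 (log2 -1.92, -1.51 and -2.06). FLT4, the VEGFC receptor of lymphatic vessels, was likewise low at 32.1, 14.3, 13.9 and 0 CPM, with log2 ratios of -3.21, -3.45 and -4.19. KDR, a rule gene, had ratios of 1.37, 1.17 and 0.63 and was not called. The 2 classes thus differed by receptor and co-receptor in each of the 3 libraries. Of 10 VEGF receptors and ligands listed, 7 could be compared, with 2 called higher and 2 lower. Among the ligands VEGFA had 19.3, 14.3, 8.36 and 20.7 CPM in blood vessel cells against 84.4, 85.4 and 72.2 in fibroblasts.

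In the angiopoietin pathway, in which TEK is the receptor, TEK had 359.8, 220.4, 184 and 269 CPM and ratios to lymphatic cells of 1.59, 0.41 and 0.39, not past 2-fold in each library. PTPRB had ratios of 2.35, 1.89 and 1.90 and was called higher. ANGPT2, the context-dependent TEK ligand known from sprouting vessels, was at 6.43, 33.8, 8.36 and 0 CPM against 184, 91.2 and 161 in lymphatic cells and was called lower (-3.56, -1.21 and -3.22). It was detected in 18 of 236 blood vessel cells. ANGPT1 had UMIs in 2 cells and ANGPT4 in 0. Of the 7 genes listed for this pathway 4 could be compared, and 1 was called in each direction.

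Notch receptors also divided. NOTCH4, the receptor largely restricted to endothelium, had 90, 36.9, 58.5 and 20.7 CPM against 13.2, 6.4 and 11.5 and was higher (2.11, 1.52 and 1.67), while NOTCH1 had 122, 57.4, 47.4 and 20.7 CPM against 266, 192 and 173 and was lower (-1.06, -1.58 and -1.67). The ligand JAG1 had 222, 158, 83.6 and 269 CPM and was higher (2.62, 1.18 and 2.12), and the ligand DLL4 had 57.8, 27.7, 16.7 and 0 CPM and was not called (-0.26, -0.36 and -1.07). Of 15 Notch genes listed 10 could be compared, with 2 higher and 1 lower. Their target HEY1 was detected in 19 cells.

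Transcription factors that define endothelium in general were not called. ERG had 132, 102, 89.2 and 82.9 CPM in blood vessel cells and 66.1, 60.8 and 86.3 in lymphatic cells (log2 0.90, 0.67 and 0.04), and SOX18 979.8, 383, 376 and 518 CPM against 755, 755 and 569.8 (log2 0.37, -0.96 and -0.59). ETS1, FLI1, LMO2 and ELK3 were likewise not called. Of 33 listed factors 32 could be compared: 6 were higher, 2 lower and 24 not called, with a median log2 ratio of 0.02 against -0.01 over all genes compared. The 6 higher were MEOX1, TCF15, SOX17, EPAS1, MEOX2 and MECOM. MEOX2 and TCF15, known as a pair that drives fatty acid uptake genes in heart and muscle capillaries, had 77.1, 93.3, 106 and 0 and 61, 43, 69.7 and 20.7 CPM, with ratios of 2.28, 2.18 and 2.43 and 2.83, 2.19 and 2.99. TCF15 was at 0, 1.6 and 0 CPM in lymphatic cells of libraries 1 to 3, below the blood vessel value of each of these. Its 20.7 CPM in library 4 lies under the 62.1 CPM that equal 3 UMIs there. MEOX1 had 145, 334, 385 and 145 CPM (3.95, 3.56 and 3.15), and EPAS1, the hypoxia factor HIF2A, 116, 121, 137 and 207 CPM (2.36, 1.53 and 2.43). The 2 lower were FOXC2 and TBX1, both factors of lymphatic development, with medians of -1.68 and -4.09.

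Capillary genes lay on the blood vessel side. Of 14 listed, 13 were in the annotation and 9 could be compared: 6 were higher and none lower, with a median ratio of 3.00. CD36, the fatty acid translocase, had 321, 631, 663 and 124 CPM in the 4 libraries and 0, 8 and 0 in lymphatic cells of libraries 1 to 3 (log2 5.05, 5.15 and 6.07). RGCC had 1513, 819, 446 and 539 CPM against 5.29, 19.2 and 0 (log2 6.64, 4.83 and 5.51), and CD300LG, a surface protein of capillaries, 170.3, 174, 162 and 0 CPM against 0, 3.2 and 0 (log2 4.17, 3.80 and 4.10). BTNL9 (3.00), TMEM88 (4.50) and GPIHBP1 (1.67) were the other 3, given as median ratios. CD36 was high in libraries 1 to 3, whereas in library 4 it rested on 3 of 8 cells. FCN3 was at 0 UMIs throughout.

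Of 20 lipid-handling genes listed, 9 could be compared, and 7 were higher and none lower (median 2.49). FABP5, an intracellular fatty acid carrier, had 1449, 2480.5, 3146 and 684 CPM against 307, 355 and 552 in lymphatic cells (2.20, 2.77 and 2.49). SCARB1, the HDL receptor, had 86.7, 94.3, 164 and 166 CPM against 1.32, 11.2 and 11.5 (3.09, 2.30 and 3.02). GPIHBP1, which carries lipoprotein lipase across the capillary wall, had 129, 91.2, 94.8 and 0 CPM (2.03, 1.27 and 1.67). Its partner enzyme LPL was found in 13 of the cells and stood at 3.21, 20.5, 19.5 and 0 CPM, against 63.9, 313 and 199 in fibroblasts. APOE, also called higher (3.98, 2.60 and 1.39), was detected in 36 cells, 1 of them in library 1. LIPG was at 0 UMIs.

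Among 24 transporters and channels, 12 could be compared, with 5 higher and 1 lower. SLCO2A1 (4.76, 2.47 and 2.71), ABCB1, the drug efflux pump of barrier endothelium (64.3, 133, 111 and 186 CPM, log2 2.89, 2.76 and 2.95), SLC12A2, a sodium, potassium and chloride carrier (2.41, 2.46 and 2.39), and the water channel AQP1 (2.65, 2.48 and 2.19) were higher. So was SLC9A3R2, a scaffold for ion exchangers (1.67, 1.97 and 2.15). The mechanosensitive channel PIEZO2 was lower (-1.46, -2.11 and -1.87), at 73.9, 34.8, 55.7 and 0 CPM against 221, 184 and 230.2, while its relative PIEZO1 had ratios of 0.18, -0.97 and -0.56. MFSD2A, the lipid carrier known from the blood-brain barrier, was at 0 UMIs.

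**Figure D3:**
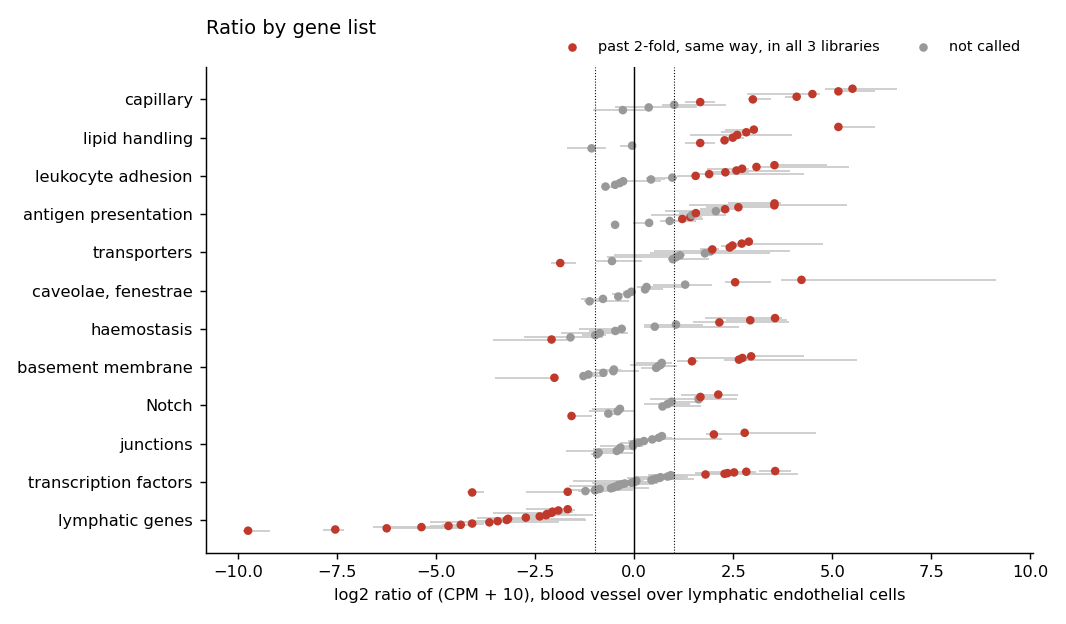
Log2 ratio of CPM + 10 between blood vessel and lymphatic endothelial cells for the genes of 12 lists that could be compared. Points are the median of libraries 1, 2 and 3 and bars run from the lowest to the highest library; red points are past 2-fold the same way in all 3, and dotted lines mark 2-fold. All 19 lymphatic genes lie to the left and all 6 called capillary genes to the right, while transcription factors centre near 0.

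Genes for leukocyte contact were on the blood vessel side. Of 19 listed, 13 could be compared, with 7 higher and none lower. ENG, a TGF-beta co-receptor that also binds integrins, had 1089, 685, 842 and 539 CPM against 62.2, 117 and 132 (3.93, 2.45 and 2.58), and CD34 629.7, 551, 616 and 497 CPM against 45, 41.6 and 11.5 (3.54, 3.44 and 4.86). The chemokines CXCL12 (5.42, 3.07 and 3.09) and CX3CL1 (2.89, 2.30 and 1.86), the platelet and leukocyte adhesion protein SELP (4.30, 1.56 and 1.89), the chemokine-binding receptor ACKR1 (2.89, 2.72 and 1.84) and ICAM3 (1.55, 1.09 and 1.64) were the others. CXCL12 was not called against fibroblasts, which had 933, 645 and 540.4 CPM against 646, 651, 270.3 and 394. SELE, the adhesion protein induced by inflammation, was at 0 UMIs in all 236 cells.

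Antigen presentation genes showed 7 of 12 compared genes higher and none lower. B2M, the light chain of MHC class I, had 8452, 5386, 5482 and 6007 CPM against 1409.9, 1703 and 1111 (2.58, 1.66 and 2.29). The immunoproteasome subunits PSMB8, PSMB9 and PSMB10 had medians of 2.63, 3.54 and 1.56, the peptide transporter TAP1 1.21, and the interferon-response factor IRF1 1.42. CD74, the MHC class II invariant chain, had 793, 192, 307 and 994 CPM against 9.26, 67.2 and 17.3 and was detected in 82 cells, spread unevenly over the libraries (25, 32, 18 and 7). CD74 is also a leukocyte gene, and the leukocyte list with it held 0.0806%, 0.0210%, 0.0334% and 0.112% of UMIs in libraries 1 to 4, against 0.00397%, 0.0157%, 0.00863% and 0.0140% in lymphatic cells. Besides the 7 genes at 0 UMIs, FCER1G had UMIs in 12 cells, S100A9 in 8, LCP1 in 3, C1QA and S100A8 in 2 each, and C1QB and CXCL8 in 1 each. The part of leukocyte RNA in the CD74 value was not tested. CIITA, the class II master regulator, had UMIs in 4 cells.

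Among other surface and G protein-coupled receptor genes, 12 of 28 compared were higher and 2 lower. TM4SF18 had 736, 387, 552 and 207 CPM against 1.32, 6.4 and 0 (6.04, 4.60 and 5.81) and CD93, a C-type lectin of endothelium, 212, 209, 415 and 207 CPM against 1.32, 3.2 and 34.5 (4.29, 4.05 and 3.26). CLEC14A (2.56), CYYR1 (2.30), the adhesion receptors ADGRL2 (2.77) and ADGRL4 (1.78), DYSF (2.65), EXOC3L2 (2.45), PALMD (1.48), TSPAN12 (1.53) and ARHGEF15 (1.59) were higher too, given as median ratios. APLNR, the apelin receptor, is described with the library differences. MRC1, a scavenger receptor, was lower (-2.65, -3.45 and -3.29) and found in 1 blood vessel cell. UNC5B, a netrin receptor, was lower too (-2.29, -2.91 and -4.33), in 17 cells. S1PR1, which guards the barrier, had 601, 469, 340.0 and 539 CPM against 811, 455 and 409 and was not called. CALCRL and RAMP2, the adrenomedullin receptor pair, were not called either (1.91, 1.11 and 0.43 and 0.02, -0.42 and -0.18), while their ligand ADM was lower (-3.95, -3.02 and -5.17), at 16.1, 29.7, 0 and 20.7 CPM against 394, 312 and 351.

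In haemostasis, 11 of 20 listed genes could be compared. VWF (3.92, 1.49 and 2.15), the thrombin receptor F2R (3.56, 1.80 and 3.73) and MMRN2, a CD93 ligand (2.93, 2.31 and 3.85), were higher, and TFPI, the tissue factor pathway inhibitor, lower (-3.56, -2.09 and -1.70). F8, the coagulation factor that VWF carries, had 116, 91.2, 80.8 and 0 CPM against 303, 190.5 and 138 and was not called (-1.32, -0.99 and -0.71). Thrombomodulin, THBD, had 601, 197, 117 and 373 CPM with ratios of 1.73, 1.05 and 0.24. Among vasoactive genes, 9 of 20 could be compared. NPR1, the natriuretic peptide receptor, was higher (3.27, 1.87 and 3.85) and ADM lower. NOS3, the endothelial nitric oxide synthase, had 202, 68.7, 134 and 539 CPM against 9.26, 60.8 and 86.3, so its ratio varied between libraries (3.46, 0.15 and 0.58). Endothelin, EDN1, varied likewise (3.13, -0.57 and 2.12).

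Most junction and caveolar genes were not called. Of 21 junction genes 14 could be compared, and JAM2 (4.58, 2.70 and 2.79) and the rule gene ESAM (2.91, 1.80 and 2.01) were higher, with none lower. CDH5, VE-cadherin, had 315, 275, 387 and 373 CPM against 231, 230.5 and 437. Of 11 caveolar and fenestral genes 10 could be compared, and PLVAP and EHD4, a membrane-remodelling ATPase (3.45, 2.55 and 2.29), were higher. CAV1 had 777, 462, 376 and 476 CPM against 1069, 589 and 501 and was not called (-0.45, -0.34 and -0.40).

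Matrix and secreted genes were mixed. Of 17 basement membrane genes 14 could be compared: HSPG2, the proteoglycan perlecan (1.62, 1.09 and 1.46), SPARC (5.63, 2.64 and 2.26), SPARCL1 (2.91, 4.28 and 2.95) and COL15A1 (2.88, 2.73 and 1.47) were higher and COL4A5 lower (-1.92, -2.02 and -3.51). COL4A1, the main collagen IV chain, had 993, 1966, 2489 and 1823 CPM against 669, 1288 and 1174 and was not called. Of 34 secreted factors 20 could be compared, with 7 higher and 3 lower. IGFBP7 had 3408, 2989.9, 3183 and 2444 CPM against 774, 983 and 1347 (2.12, 1.60 and 1.23), PDGFB, which recruits pericytes, 64.3, 61.5, 66.9 and 41.4 CPM against 13.2, 11.2 and 23 (1.68, 1.75 and 1.22), and KITLG, the KIT ligand, 112, 145, 86.4 and 104 CPM against 1.32, 8 and 11.5. IGF2 had 787, 1274, 691 and 2983 CPM against 0, 245 and 201 (6.32, 2.33 and 1.73), but fibroblasts had 1007, 4511 and 2276 CPM. CTGF, CXCL12 and SPARC were the other 3 higher. IGFBP5 was lower at 12.9, 142, 30.7 and 0 CPM against 3787, 3201 and 2596 (-7.38, -4.40 and -6.00), as were IGF1 (-4.34, -3.98 and -5.83) and SEMA6A (-1.89, -1.73 and -1.85).

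In the BMP and TGF-beta list 13 of 17 genes could be compared, and ENG, the inhibitor SMAD7 (3.76, 1.98 and 2.45) and the target ID2 (2.52, 1.06 and 1.69) were higher and SMAD1 lower (-2.57, -2.34 and -2.81). ID1 had 1491, 612, 1249 and 1056 CPM against 86, 387 and 334 (3.97, 0.65 and 1.87) and ID3 ratios of 2.71, 0.68 and 1.06, neither past 2-fold in library 2. Integrin ITGA1, a collagen receptor, was higher (2.47, 2.03 and 3.19), as was ITGB5 (1.81, 1.52 and 1.86), and ITGA9 was lower (-1.55, -2.07 and -2.25). Of 16 compared matrix and integrin genes the other 13 were not called. Of 20 compared immediate early genes none was called. IGF2R, the scavenging receptor for IGF2, had 119, 221, 128 and 41.4 CPM against 31.7, 81.6 and 23 (1.63, 1.34 and 2.07).

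All 19 comparable genes of the lymphatic list were lower, of which MMRN1, PROX1, LYVE1 and CCL21 were used by the rule. Among those it did not use, RELN had 12.9, 5.12, 0 and 0 CPM against 581, 375 and 345 (-4.69, -4.67 and -5.15), PDPN 3.21, 0, 0 and 20.7 against 201, 198 and 282 (-4.00, -4.38 and -4.87), and PKHD1L1 19.3, 54.3, 2.79 and 0 against 257, 142 and 127 (-3.19, -1.24 and -3.42). The arterial list split evenly, with 4 of 10 compared genes higher (SEMA3G, CXCL12, SOX17 and JAG1) and 4 lower (GJA4, NOTCH1, UNC5B and GLUL). GJA4, a gap junction protein, had 96.4, 157, 50.2 and 0 CPM in blood vessel cells and 679, 760.3 and 1381 in lymphatic cells (-2.69, -2.21 and -4.53). The lymphatic-list gene SCN3B was lost when ratios were centred on their median. Outside all lists, PTN (-5.79, -4.28 and -5.48), NR2F1 (-4.75, -5.07 and -6.43), S100A4 (-4.86, -3.91 and -4.84) and KCTD12 (-4.19, -4.11 and -5.27) were among the 20 lowest. On the blood vessel side FAM167B (6.81, 5.46 and 4.26), CD320, the vitamin B12 uptake receptor (6.69, 5.23 and 4.71), and WFDC1 (4.51, 5.76 and 5.09) stood beside TM4SF18, RGCC and CD36. WFDC1 had 707 UMIs in blood vessel cells and 0 in lymphatic cells of libraries 1 to 3, which is at least 223-fold higher against a floor of 3 UMIs over the group. ESM1, a proteoglycan of sprouting endothelium, had 343 and 0, at least 108-fold higher.

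Against all other cells of the same libraries, lymphatic cells left out, 7317 genes could be compared, of which 841 (11.5%) were higher and 275 (3.76%) lower. The other cells include the few barcodes with at least 4 endothelial genes that also carried PTPRC or PDGFRA. The median of all genes was itself above 0, by 0.54, 0.43 and 0.43 in libraries 1 to 3, and with ratios centred on it 478 (6.53%) were higher and 517 (7.07%) lower. Of the function genes outside the rule, 150 of 246 were higher and 13 lower, and 124 and 24 after centring. All 9 comparable capillary genes were higher (8 after centring), as were 26 of 29 surface genes (23 after centring). PTPRB (5.92, 5.55 and 5.34), SLCO2A1 (5.66, 4.58 and 5.36), CYYR1 (6.05, 5.48 and 5.37), S1PR1 (5.46, 4.87 and 4.88) and SERTM1 (6.04, 4.69 and 5.15) were among the highest. FABP5 was also high here (5.09, 4.85 and 5.21), as were FAM167B (6.78, 5.89 and 6.75) and TMEM88 (5.69, 4.96 and 6.25).

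The lowest ratios to other cells belonged to islet hormones and matrix genes: SST (-6.86, -5.23 and -5.48), PPY (-4.95, -5.58 and -2.28), GAST (-4.29, -3.39 and -4.56), COL6A1 (-4.04, -2.82 and -4.56) and COL1A1 (-4.56, -2.99 and -3.98). PPY nevertheless had UMIs in 51, 89, 48 and 5 of the blood vessel cells, at 4979, 218, 6761 and 166 CPM. VEGFA was lower than in other cells (-1.41, -1.67 and -1.90), as were VEGFD (-2.38, -1.08 and -1.60), PTGES (-1.78, -2.82 and -1.64) and SLIT3 (-1.87, -1.34 and -2.50). In fibroblasts these stood at 111, 236 and 136 CPM for PTGES, which makes prostaglandin E, and 158, 102 and 215 CPM for SLIT3, a guidance ligand.

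Against fibroblasts, 7558 genes could be compared, with 664 (8.79%) higher and 432 (5.72%) lower. With ratios centred, 512 (6.77%) were higher and 519 (6.87%) lower. Of the function genes outside the rule, 132 of 248 were higher and 25 lower, and 122 and 31 after centring. Antigen presentation genes again lay on the endothelial side, 11 of 12 higher (9 after centring), with PSMB9 at 4.30, 4.73 and 4.51. PTPRB (6.12, 5.78 and 5.41), CYYR1 (6.05, 5.67 and 5.37), TM4SF18 (6.13, 4.68 and 5.30) and TM4SF1 (4.29, 5.17 and 5.25) were among the highest genes outside the rule. Collagens and small proteoglycans were the lowest, with COL6A1 at -5.69, -4.26 and -6.11, COL1A2 at -6.66, -4.64 and -5.37, DCN at -6.58, -4.67 and -5.27 and DPT at -7.59, -4.63 and -3.93. COL1A2, DCN and DPT are among the 8 genes used to choose the fibroblasts, so their low ratios follow from that choice. The vasoactive list divided, with 6 of 14 higher and 5 lower, the lower being PTGS1, PTGIS, PTGES, DDAH2 and ADM. The 3 comparisons share the same blood vessel cells, so their calls are not independent.

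Arterial, venous and capillary genes were used to describe variation among the cells. At least 2 genes of the full lists were detected in 198 (arterial), 154 (venous) and 209 (capillary) of 236 cells, so these lists overlapped widely. Shorter lists were chosen after the values were seen, so their overlap is a description. At least 2 of GJA5, SEMA3G, HEY1, HEY2 and BMX were detected in 13 cells, at least 1 of ACKR1, SELP and MADCAM1 in 72, and at least 2 of CD36, CD300LG, BTNL9, GPIHBP1 and RGCC in 164 (69.5%, 63.2 to 75.3). The set sizes depend on these unequal limits. At least 1 gene of the shorter arterial list was also found in 72 cells, and at least 2 of the venous list in 35. The overlaps given next use the unequal limits. The arterial set shared 2 cells with the venous set and 2 with the capillary set, while 34 cells were in both the venous and the capillary set, and 25 cells were in none. These sets describe detection in cells of unequal depth and are not cell types.

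Co-detection of single genes showed how the sets differ, in counts that describe the cells with no test. Of 30 cells with ACKR1, a gene of venules, 24 also had SELP, against 40 of 206 cells without it, and none of the 30 had CA4, against 48 of 206. By library, SELP was in 5 of 6, 13 of 15, 6 of 8 and 0 of 1 ACKR1 cells. Of 22 cells with GJA5, an arterial gap junction gene, 6 had CD36, against 159 of 214 without it, 2 had CD300LG, against 118 of 214, and none had ACKR1. By library, CD36 was in 3 of 7, 2 of 9, 1 of 3 and 0 of 3 GJA5 cells. GJA5 cells were deeper than the rest (median 7381.5 against 4941.5 UMIs), as were ACKR1 cells (6821.5 against 5011). Of 48 cells with CA4, a carbonic anhydrase of capillaries, 46 had CXCL12, against 114 of 188 without it. Of 49 cells with ESM1, 23 had GJA4, against 36 of 187, and 1 had SELP, against 63 of 187. With every cell thinned to 3000 UMIs, 11 of 20 ACKR1 cells had SELP against 31 of 216, and 3 of 16 GJA5 cells had CD36 against 140 of 220. Background in acinar cells was low for these genes: ACKR1 was found in 0.159%, GJA5 in 0.834%, CA4 in 0.0794%, SELP in 0.0794% and CD36 in 0.953% of them, and ESM1 in none. These rates leave out acinar barcodes with at least 4 of the 12 endothelial genes.

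**Figure D4:**
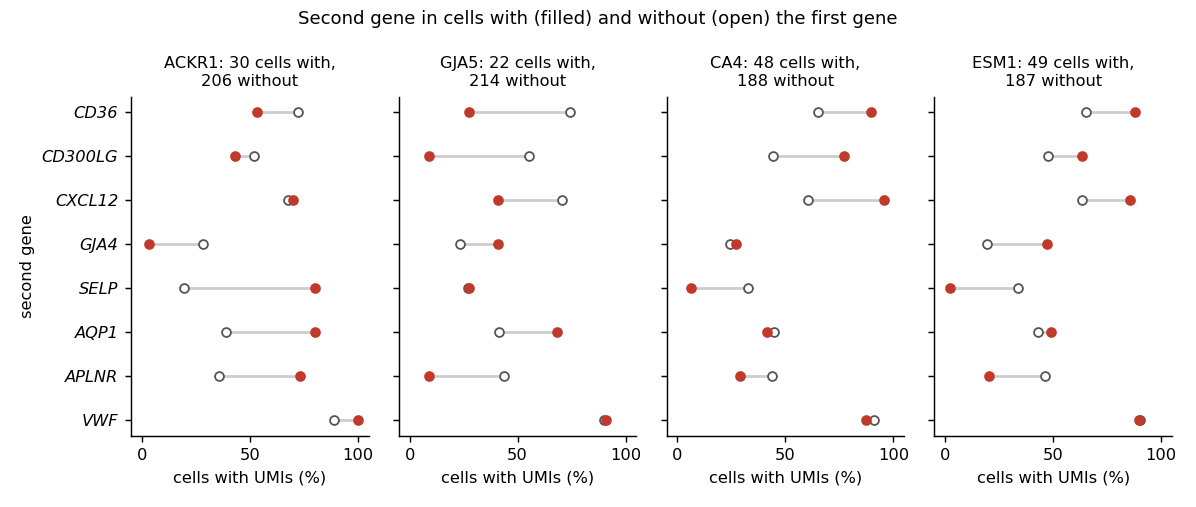
Percentage of blood vessel endothelial cells with UMIs of a second gene, in cells with (filled) and without (open) UMIs of ACKR1, GJA5, CA4 or ESM1, over all 4 libraries at full depth. SELP is found in 24 of 30 ACKR1 cells, CD36 in 6 of 22 GJA5 cells and CXCL12 in 46 of 48 CA4 cells, while VWF is frequent in every set.

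The libraries differed in which of these genes their cells carried. These genes were picked after their values were seen, and the libraries carry no age. CA4 was at 1272, 32.8, 8.36 and 41.4 CPM in libraries 1 to 4 and was found in 24, 20, 3 and 1 cells, so it was high in library 1. APLNR ran the other way, at 32.1, 107, 390.2 and 104 CPM in 9, 45, 39 and 3 cells, high in library 3. It was above lymphatic cells in all 3 compared libraries (1.90, 3.33 and 4.67). AQP1, at 1092, 278, 220.2 and 476 CPM, was found in 42, 39, 18 and 5 cells and was high in library 1. The BMP inhibitor SMAD6 was high in libraries 1 and 4 (141, 16.4, 11.1 and 124 CPM in 23, 11, 4 and 5 cells). TAGLN, a smooth muscle gene, followed the same libraries at 418, 58.4, 8.36 and 766 CPM in 20, 13, 2 and 2 cells. HIGD1B, a pericyte gene, had 167, 4.1, 2.79 and 0 CPM and came from 2, 2, 1 and 0 cells, and the share of 13 mural genes in summed UMIs was 0.0810%, 0.0186%, 0.00390% and 0.0891%. The part of mural RNA in these library differences was not tested.

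**Figure D5:**
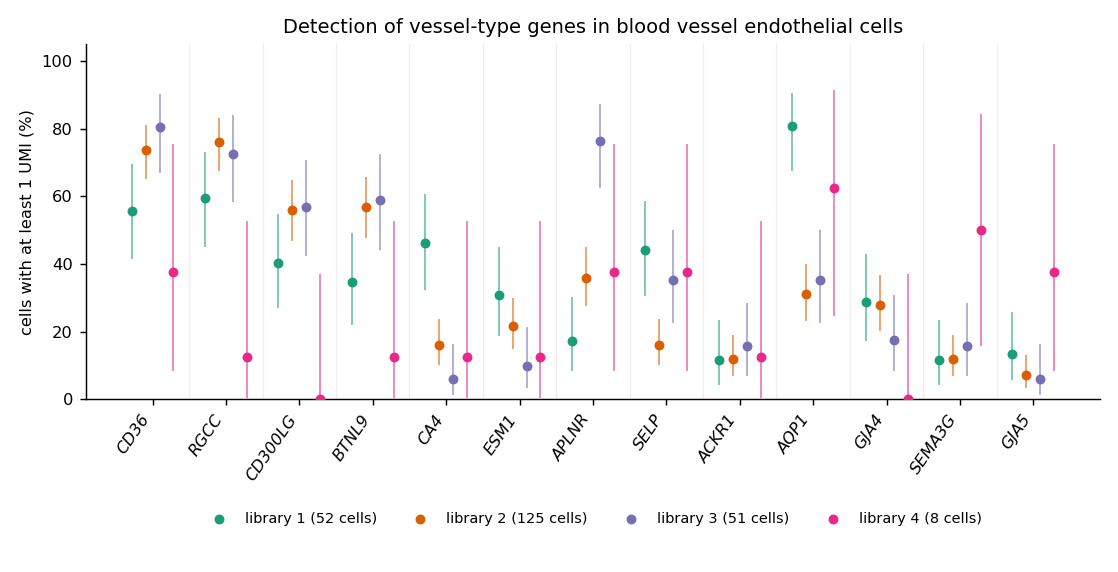
Percentage of blood vessel endothelial cells with at least 1 UMI of 13 vessel-type genes in libraries 1 to 4, with 95% exact binomial intervals. CA4 and AQP1 are highest in library 1 and APLNR in library 3, and the 8 cells of library 4 give wide intervals.

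Matrix genes of the cells also moved with the library. COL4A1 was at 993, 1966, 2489 and 1823 CPM and COL4A2 at 598, 1200.3, 1622 and 911 CPM, lowest in library 1. COL1A1, the fibroblast collagen, was at 32.1, 961, 438 and 62.1 CPM in these cells and at 3101, 20661 and 20730.3 CPM in fibroblasts of libraries 1 to 3, low in library 1 in both classes. The share of 8 fibroblast genes in the summed UMIs of the endothelial cells was 0.0286%, 0.277%, 0.150% and 0.0290%, and its part in the collagen values was not tested. In fibroblasts these 8 genes held 2.47%, 6.24%, 6.24% and 7.75%, so the 2 classes did not share the low level in library 4. KLF2, the factor induced by flow, was at 813, 353, 212 and 787 CPM, and the immediate early gene FOS at 1500.2, 830.2, 295 and 2921 CPM, both lowest in library 3. Lymphatic cells had 1155, 507 and 282 CPM of KLF2 and 2411, 769.9 and 489 CPM of FOS in libraries 1 to 3, in the same order.

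Cycling cells came from the libraries unevenly. At least 4 of 23 cell cycle genes were detected in 0 of 52 cells of library 1, 9 of 125 of library 2 (7.20%, 3.34 to 13.2), 20 of 51 of library 3 (39.2%, 25.8 to 53.9) and 0 of 8 of library 4. A count of 0 still allows up to 6.85% in library 1 and 36.9% in library 4 by the exact interval. Median depth was alike in libraries 1 to 3, and with every cell thinned to 3000 UMIs the counts were 0, 0, 12 (23.5%) and 0. MKI67, a marker of dividing cells, was found in 0, 0, 8 and 0 cells, TOP2A in 0, 5, 13 and 0 and BIRC5 in 0, 0, 12 and 0. Per UMI, TOP2A was lower than in lymphatic cells, at 0, 5.12, 192 and 0 CPM against 25.1, 81.6 and 403 (-1.81, -2.60 and -1.03), the one call among 3 compared cell cycle genes. That call was lost in 6 of the alternatives, centring among them. Library 3 was also the highest for lymphatic cells (5 of 20) and fibroblasts (5.39%, against 0.306%, 1.60% and 0.494% in libraries 1, 2 and 4). Within library 3 the blood vessel share was above that of fibroblasts (fibroblast interval 4.41 to 6.52) and overlapped that of lymphatic cells (8.66 to 49.1). Of the 18 cells with TOP2A none had CA4 or ESM1, against 48 and 49 of 218 without it, and 13 had APLNR, against 83 of 218. Most TOP2A cells were in library 3, where APLNR was high and CA4 low, and they were deeper (median 9692.5 against 4954.5 UMIs). With cells thinned to 3000 UMIs, 6 of 13 TOP2A cells had APLNR, against 66 of 223. Acinar cells of the same libraries had MKI67 in 15.4% and TOP2A in 13.3%, at a higher median depth, so free RNA from them may add such UMIs, and its part in the cell cycle counts was not tested.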

How the data were processed

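The deposited matrix holds UMI counts of 27137 genes for 27179520 barcodes of 4 libraries, not normalized, per the file header written by Cell Ranger 5.0.1. Seurat 3.1.1, bcl2fastq 5.01 and an earlier Cell Ranger, 3.1.0, are listed per the submitters' processing notes. The genome build used for alignment is not given in the sources used here. Gene symbols are those of the matrix. Of its gene IDs 27103 matched the RefSeq table, and 10744 symbols are unnamed loci.

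Barcodes were kept at 3000 UMIs and 500 genes. No doublet caller was run; cells with acinar or islet genes were left out as an alternative. UMIs were summed per class and library and scaled to CPM, and log2 ratios used a pseudocount of 10 CPM. Comparison needed 5 expected UMIs and 20 cells per class. Intervals are exact (Clopper-Pearson, 95%) and cover counting error only. The comparison was tested on simulated data with centred ratios only, and the uncentred ratios behind the main calls were not simulated. Library suffixes are tied to no sample, and cell classes were drawn from expression in the same cells, so values are described per library and no p-value is given.

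Fibroblasts had at least 4 of the genes COL1A1, COL1A2, COL3A1, DCN, LUM, COL6A3, DPT and PCOLCE. They also had at least 1 UMI of PDGFRA, no UMI of PTPRC and fewer than 4 of the 12 endothelial genes. Acinar cells had at least 10% of UMIs from named acinar genes, fewer than 4 of the 12 endothelial genes and no UMI of PTPRC or PDGFRA. Genes named are the 5 markers, called or listed function genes, and the 20 highest and lowest called genes of each comparison. Others are said to be chosen after their values were seen. The members and gene lists were chosen with earlier results of these data known. Alternatives were the pseudocount, filters, depth, rule thresholds, centring and left-out libraries. Software was Python 3.11.15, numpy 2.4.6, scipy 1.17.1, pandas 2.3.3 and matplotlib 3.10.9.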

Additional observations from a re-analysis of the deposited data

Results flagged for a closer look

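Barcodes with at least 4 endothelial genes that also carried PTPRC or PDGFRA were outside the blood vessel, lymphatic and fibroblast classes. They numbered 13, 26, 3 and 8 in libraries 1 to 4. Both endothelial classes left them out because the rule asks for both genes at 0 UMIs. They were counted among all other cells, so those of libraries 1 to 3 are part of that comparison. No control sample sets a level for them.

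The 8 blood vessel cells of library 4 entered no comparison, since fewer than 20 cells were available. In them the arterial gene GJA5 stood at 601 CPM, the elastic fibre gene FBLN5 at 394, FN1, which encodes fibronectin, at 2527 and the hormone gene INS at 88576 CPM, each above the 3 UMIs that a count of 0 allows (62.1 CPM). These genes were chosen after their values were seen. GJA5 was found in 3 of the 8 cells and FBLN5 in 2, both of them with GJA5. Islet hormones reached 5% of UMIs in 2 of the 8 cells.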

How the results depend on the processing

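Of the 110, 219 and 189 list genes called against lymphatic, other and fibroblast cells, none changed the sign of its median ratio under any alternative. Called genes outside the lists were not checked for this. Leaving out a library or changing the pseudocount cannot change that sign, since a call needs the same direction in each library. Against lymphatic cells, a pseudocount of 50 CPM gave 88 genes higher and 94 lower, with 49 function genes higher, and thinning to 3000 UMIs gave 132 and 166. Against all other cells, a pseudocount of 50 gave 330 higher and 88 lower, with 5 function genes lower, a pseudocount of 1 gave 424 lower, and centring gave 478 higher and 517 lower, with 24 function genes lower. Against fibroblasts, a pseudocount of 50 gave 246 and 186. With 1 library left out, the counts ran from 274 to 328 higher and 343 to 351 lower against lymphatic cells, 991 to 1028 and 313 to 429 against other cells, and 779 to 803 and 501 to 538 against fibroblasts. The count of 429 is without library 2. With at least 2 genes, the shorter vessel lists gave 13 arterial and 35 venous cells. A minimum of 1000 UMIs gave shares of 2.81%, 2.66% and 1.44% in libraries 1 to 3, a minimum of 5000 gave 0.749% in library 3, and no lymphatic UMI at all gave 1.44% in library 2. Library 3 dropped out of the lymphatic comparison with at least 6 endothelial genes or 5000 UMIs, and a minimum of 10 cells admitted no further library. Fewer libraries give more calls by construction, since a call needs agreement in each; other causes were not tested. No paired analysis was possible because the ages, whose replicate numbers the labels give, could not be assigned to libraries. The cell class ratios were already taken within each library and were not tested, since the classes were drawn from expression in the same cells. Depth limits the values of library 4, with 8 cells, and the lymphatic values of library 3, with 20.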
